A study of Mus musculus with 46 samples.

Results

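The genes described here are 42 mouse genes of DNA repair and of the replication fork, given as a list of symbols, and all 42 were found among the 20999 genes of the deposited RNA count table. All 42 passed the filter on low counts that left 12230 genes for testing. By role they were 9 genes of homologous recombination, 10 of the Fanconi anaemia pathway, 6 helicases, nucleases and base or mismatch repair genes, 8 genes of the sliding clamp, its loader and single-strand binding, 5 genes of the fork polymerases, primase and Okazaki fragment joining, and 4 checkpoint and chromatin assembly genes.

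All samples were microglia, the macrophages that live in brain tissue, of male C57BL/6 mice, and most were sorted by Ki67, a nuclear protein of cycling cells. RNA was sequenced in 5 groups of 2 libraries. Adult microglia came from untreated WT mice of 90 days, and their labels call the cells Ki67-negative although no reporter is given. Postnatal day 8 (PND8) microglia and repopulating microglia came from Ki67-rfp mice, which carry a fluorescent reporter of Ki67, and each was sorted into Ki67-negative and Ki67-positive cells. PND8 mice were 8 days old and untreated. Repopulating microglia came from mice of 75 days that had eaten PLX5622, an inhibitor of the CSF1R receptor that depletes microglia, for 17 days and then recovered for 3 days. The count table's own header calls the sorted cells Ki67Low and Ki67High. The labels give 2 independent biological replicates per condition, and whether animals were pooled is not given in the sources used here.

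Chromatin was profiled in cells labelled WT. H3K27ac, an acetylation mark found at promoters and enhancers in use, had 6 groups of 2 libraries: adult at 60 and 65 days, PND8 Ki67-negative and PND8 Ki67-positive, both sorts from 90-day-old mice after 4 weeks of cuprizone, a diet toxin that removes myelin, and Ki67-positive cells after the same 17 days of PLX5622 and 3 days of recovery. The age of that last group is 90 days in the labels. Rpb2, a subunit of RNA polymerase II, had 2 adult libraries (labelled 60 and 65 days) and 1 of PND8 Ki67-positive cells. H3K4me3, a histone mark of promoters, had 2 adult libraries at 75 days, and open chromatin (ATAC-seq) had 1 library each of adult (80 days), PND8 Ki67-positive and repopulating Ki67-positive (75 days) cells. For chromatin immunoprecipitation Ki67 was stained by antibody in fixed cells, so the sort differed from that of the RNA libraries. The ATAC-seq titles of sorted cells name the reporter, whereas their genotype label is WT.

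A dividing cell copies its DNA at replication forks. There a ring-shaped clamp holds the polymerases on the template, primase starts each new strand, and nuclease and ligase turn Okazaki fragments into a continuous strand, while a checkpoint kinase slows the cycle when a fork stalls. Breaks that arise at forks are repaired by homologous recombination, which copies the sister strand, and crosslinks between strands are removed by the Fanconi anaemia pathway. Many of these genes are transcribed mainly from late G1 into S phase under E2F factors, and microglia of a healthy adult brain rarely divide.

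RNA libraries held 6865903 to 10287876 counts and 13557 to 14728 detected genes. Mki67, which encodes Ki67, checked the sort. It was at 13.4 and 11 CPM (each gene's count scaled to a library total adjusted between libraries) in adult. At PND8 it was at 242 and 282 CPM in Ki67-negative and 919.6 and 1107 in Ki67-positive cells. In repopulation it was at 336 and 463 CPM in Ki67-negative and 930.1 and 1087 in Ki67-positive libraries. The Ki67-negative libraries held less Mki67 than the Ki67-positive ones and more than adult, with log2 fold changes over adult of 4.42 ± 0.19 (SE), adjusted p = 3.10e-09 at PND8 and 5.03 ± 0.19 (SE), adjusted p = 1.82e-09 in repopulation (edgeR, quasi-likelihood test, p adjusted by Benjamini-Hochberg). Microglia markers (8 genes, Cx3cr1 and P2ry12 among them) summed to between 6440 and 8536 CPM in all 10 libraries.

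The promoters of these genes can be read directly for part of the list. The RefSeq promoter table (build GRCm38.p6, 250 bases before to 50 after each start) held 35 of the 42 genes, and 33 of these start at the same base as in the count table. Xrcc2, Rad54b, Fancd2, Pif1, Exo1, Pole and Rfc2 are not in it. Printed here are the 250 bases before the start for the 3 genes with the lowest sum of the PND8 and repopulation log2 fold changes between Ki67-positive and Ki67-negative cells (Chaf1b, Ung, Chek1) and for Bard1, which had the highest sum among genes the table holds. Fancg and Clspn were added after their values were seen, because each lacks an adult H3K27ac peak and holds E2F-type letters in its 300-base window, which for Clspn lie in the 50 bases after the start that are not printed. Pold1 also meets both conditions, with its E2F-type letters in those 50 bases, and was not printed. Capitals mark the motifs: E2F-type letters (TTTCCCGC, TTTCGCGC, TTTGCCGC or TTTGGCGC), the CCAAT box (CCAAT) and the cell cycle homology region (TTTGAA or TTCGAA), each on either strand, so that CCAAT also appears as ATTGG. No letter set contains another.
Chaf1b, chr16:93883651-93883900, plus strand: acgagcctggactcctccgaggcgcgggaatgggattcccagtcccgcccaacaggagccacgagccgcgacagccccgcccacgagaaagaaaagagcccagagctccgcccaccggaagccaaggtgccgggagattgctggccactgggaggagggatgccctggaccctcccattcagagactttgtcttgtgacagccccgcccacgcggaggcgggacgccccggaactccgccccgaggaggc
Ung, chr5:114130185-114130434, plus strand: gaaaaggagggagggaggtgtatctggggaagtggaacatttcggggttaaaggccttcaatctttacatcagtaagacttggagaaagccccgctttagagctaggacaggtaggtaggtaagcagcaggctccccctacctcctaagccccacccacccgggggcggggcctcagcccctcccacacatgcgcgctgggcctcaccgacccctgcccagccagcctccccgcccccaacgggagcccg
Chek1, chr9:36726659-36726908, minus strand: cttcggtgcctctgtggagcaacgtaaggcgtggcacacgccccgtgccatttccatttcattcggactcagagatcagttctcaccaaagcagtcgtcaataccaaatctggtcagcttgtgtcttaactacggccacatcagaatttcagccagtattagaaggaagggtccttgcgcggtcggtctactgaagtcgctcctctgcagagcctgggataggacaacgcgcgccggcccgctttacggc
Bard1, chr1:71102973-71103222, minus strand: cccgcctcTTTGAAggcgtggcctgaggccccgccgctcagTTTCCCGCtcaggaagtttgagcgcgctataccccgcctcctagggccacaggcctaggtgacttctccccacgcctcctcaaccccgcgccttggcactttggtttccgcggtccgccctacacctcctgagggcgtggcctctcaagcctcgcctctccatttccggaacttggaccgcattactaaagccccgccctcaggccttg
Fancg, chr4:43010302-43010551, minus strand: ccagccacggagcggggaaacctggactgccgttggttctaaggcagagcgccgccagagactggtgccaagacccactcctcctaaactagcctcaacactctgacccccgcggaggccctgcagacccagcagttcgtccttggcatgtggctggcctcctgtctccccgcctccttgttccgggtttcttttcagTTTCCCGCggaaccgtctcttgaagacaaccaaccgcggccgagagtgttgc
Clspn, chr4:126556730-126556979, plus strand: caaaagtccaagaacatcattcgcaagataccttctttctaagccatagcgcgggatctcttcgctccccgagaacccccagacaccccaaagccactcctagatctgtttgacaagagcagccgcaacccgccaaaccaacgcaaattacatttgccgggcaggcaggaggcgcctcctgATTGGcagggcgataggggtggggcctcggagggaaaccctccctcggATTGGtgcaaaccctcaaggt

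In the 300-base windows, E2F-type letters occurred in 8 of the 35 promoters (22.9%), against 2.26% of all 32851 promoters in the table and 3.99% of the 12425 promoters of tested genes. The 8 were Brca2, Bard1, Fancg, Msh6, Rfc3, Pold1, Lig1 and Clspn. The CCAAT box occurred in 22 of 35 (62.9%), against 37.4% of all promoters and 38.0% of those of tested genes. The cell cycle homology region letters occurred in 3 of 35 (8.57%), against 19.2% and 14.0%. Chaf1b, Ung and Chek1 held none of the 3 motif sets in these windows, and Bard1 held the E2F-type and the cell cycle homology region letters. Ung's start in the promoter table lies 721 bases from its start in the count table, so its printed sequence belongs to the former. A match describes letters and not a bound site.

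H3K4me3 and open chromatin were found at all 42 promoters. In each of the 2 adult H3K4me3 libraries a peak overlapped the start site with 1 kb on each side for 42 of 42 genes, where 89.8% of tested genes had one in both libraries. ATAC-seq gave 42 of 42 in the adult library (88.3% of tested genes), 42 of 42 in PND8 Ki67-positive cells (89.2%) and 42 of 42 in repopulating Ki67-positive cells (90.8%). Genes with adult RNA under 1 TPM (a level scaled to transcript length and library) were thus marked as well: Brca1, Brip1, Chaf1b, Clspn, Exo1, Pif1, Rad54b, Rad54l and Ung were under that level in both adult libraries. For 11 of the 42 genes another gene's start lies in the same window, such as Nbr1 beside Brca1 and Dctn5 beside Palb2, and a peak there cannot be assigned to one of them.

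The level of the genes as a whole differed most between adult and all other groups. Summed over the 42 genes, adult libraries held 658.7 and 652.4 CPM, PND8 Ki67-negative libraries 2295 and 2475, PND8 Ki67-positive libraries 1665 and 1767, repopulating Ki67-negative libraries 1736 and 2272, and repopulating Ki67-positive libraries 1584 and 1987. Per transcript length the most abundant in adult microglia were Rfc2 (mean 54.2 TPM), a clamp loader subunit, Fance (43.6 TPM), a subunit of the Fanconi core complex, and Pcna (38.1 TPM), the sliding clamp. In PND8 Ki67-negative cells the order was Pcna (115 TPM), Rfc2 (98.6 TPM), Lig1 (84.3 TPM), the DNA ligase of Okazaki fragments, and Fen1 (60.3 TPM), the flap nuclease that trims them. The 2 libraries of Pcna (111 and 119 TPM) did not overlap with those of Rfc2 (92.4 and 105 TPM). Pif1, a helicase, was the least abundant in adult (0.19 TPM), PND8 Ki67-negative (3.42 TPM) and repopulating Ki67-negative cells (3.16 TPM) but was the third most abundant in PND8 Ki67-positive cells (51.1 TPM). For 8 of the 42 genes the TPM table names another transcript than the count table.

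**Figure D1:**
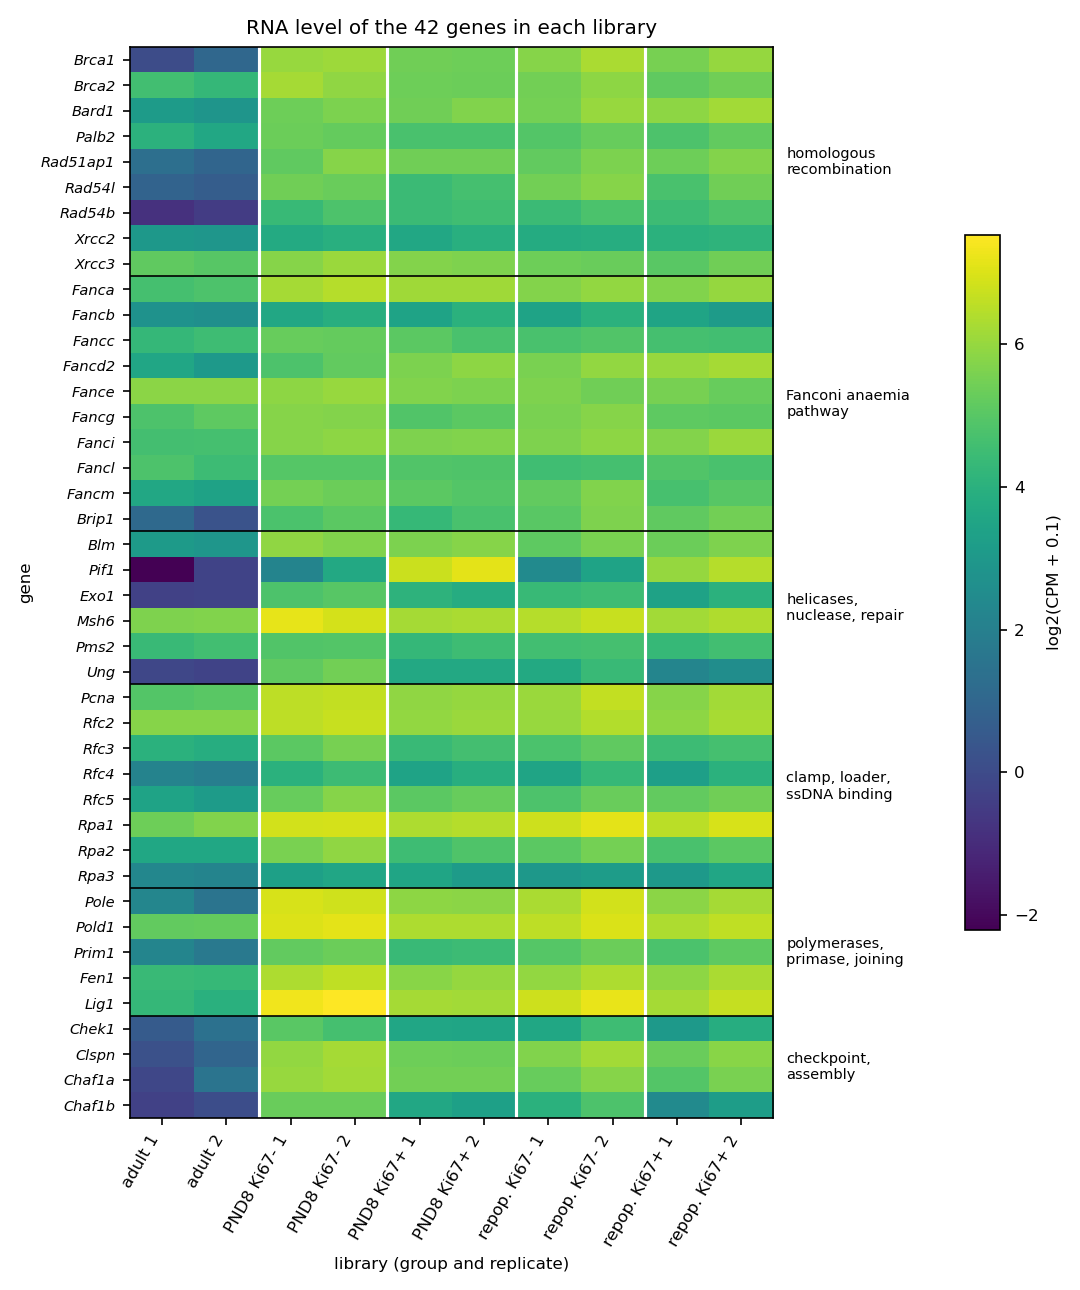
RNA level of the 42 genes (rows, grouped by role) in the 10 libraries (columns, 2 per group), as log2 of CPM plus 0.1, where colours are to be compared along a row because CPM is not scaled to length. The 2 adult columns are darker than the other 8 for most rows, Fance and Fancl vary little along their rows, and Pif1 is bright in the 4 Ki67-positive libraries, from 63.7 to 140.7 CPM.

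Against adult microglia, 37 of the 42 genes were higher and 0 lower in PND8 Ki67-positive cells, where edgeR called 25.1% of all tested genes higher and 24.3% lower. PND8 Ki67-negative cells had 40 higher and 0 lower (25.4% and 21.4% of tested genes). Repopulating Ki67-positive cells had 34 higher and 1 lower (23.9% and 21.0%), and repopulating Ki67-negative cells had 37 higher and 0 lower (21.5% and 17.6%). The median log2 fold change of the 42 genes was 1.51, 2.02, 1.48 and 1.80 in that order, beside 0.00, 0.03, -0.01 and -0.01 over all tested genes. These 4 comparisons share the 2 adult libraries. DESeq2 gave 37, 39, 35 and 37 calls among the 42, in either direction. The share of all tested genes that DESeq2 called is not given here.

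Of the 42, 34 were called higher than adult in all 4 comparisons. The share of all tested genes called higher in all 4 was not counted. It can be at most 21.5%, the share called higher in repopulating Ki67-negative cells. Brca1, which with its partner Bard1 directs break ends to recombination, was at 0.925 and 1.96 CPM in adult, 64.5 and 68.6 in PND8 Ki67-negative, 42.3 and 41.3 in PND8 Ki67-positive cells, 53.7 and 78.6 in repopulating Ki67-negative and 45.7 and 63.9 in repopulating Ki67-positive libraries. All 8 libraries of these 4 groups lay above both adult libraries, and the log2 fold change lay between 4.86 (PND8 Ki67-positive) and 5.53 (PND8 Ki67-negative). Rad54b, a motor protein of recombination, went from 0.463 and 0.611 CPM in adult to between 20.5 and 28.2 in the other 8 libraries, with log2 fold changes of 5.35 to 5.52. Clspn, the adaptor that brings the checkpoint kinase to the fork, gave 4.84 to 5.56.

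The helicase Pif1 had the largest log2 fold change against adult in both Ki67-positive groups, 8.17 ± 0.54 (SE), adjusted p = 6.33e-08 at PND8 and 7.45 ± 0.56 (SE), adjusted p = 2.45e-07 in repopulation. Those values rest on 1 and 6 adult counts. In PND8 Ki67-negative cells the largest were Ung (5.67 ± 0.34 (SE), adjusted p = 3.88e-08), the uracil glycosylase that removes uracil from DNA, Clspn (5.56 ± 0.30 (SE), adjusted p = 1.76e-08), Chaf1b (5.54 ± 0.38 (SE), adjusted p = 1.35e-07), a subunit of the factor that loads histones on new DNA, and Brca1 (5.53 ± 0.30 (SE), adjusted p = 2.09e-08). In repopulating Ki67-negative cells they were Brca1 (5.51 ± 0.30 (SE), adjusted p = 2.50e-08), Rad54b (5.48 ± 0.34 (SE), adjusted p = 6.43e-08), Clspn (5.42 ± 0.30 (SE), adjusted p = 2.58e-08) and Rad54l (4.91 ± 0.28 (SE), adjusted p = 3.52e-08), another motor protein of recombination. The fourth in PND8 Ki67-positive cells was Clspn (4.84 ± 0.31 (SE), adjusted p = 3.71e-08) behind Pif1, Rad54b and Brca1, and in repopulating Ki67-positive cells it was again Clspn (5.04 ± 0.30 (SE), adjusted p = 3.10e-08). The other genes named here also rest on few adult counts. These were 4 and 5 for Rad54b, 6 and 7 for Ung, 6 and 8 for Chaf1b, 8 and 16 for Brca1, 9 and 15 for Clspn, and 12 and 15 for Rad54l.

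The other 8 genes were called higher in fewer of the 4 comparisons. Fance was called higher in 0 of the 4 comparisons and was lower in repopulating Ki67-positive cells: 57 and 57.3 CPM in adult and 46.1 and 38.9 there, -0.42 ± 0.12 (SE), adjusted p = 0.0135. Fancl, the ubiquitin ligase of the Fanconi pathway, was also called in 0 of 4, with 28.3 and 22.1 CPM in adult and 23.0 to 31.5 in the other libraries. Pms2, a mismatch repair subunit, was called in 1 of 4, Fancc, Fancg, Rfc2 and Xrcc3 in 2 of 4 each, and Fancb in 3 of 4. Every gene of the polymerase, primase and joining group and of the checkpoint and assembly group was called higher in all 4.

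Age, genotype and a numeric code in the file headers differ between the adult libraries and the others, as does PLX5622 treatment in repopulation, and their parts cannot be told apart. Border macrophage markers (5 genes, Mrc1 and Lyve1 among them) summed to 62.2 to 74.8 CPM in adult, 593.7 to 852 CPM in PND8 and 26.1 to 42.8 CPM in repopulating libraries. Monocyte and neutrophil markers (7 genes) summed to 61.6 to 211 CPM in adult and 3.49 to 9.26 CPM in the other groups, and erythroid markers (5 genes) to 23.1 to 75.4 CPM at PND8 and 0.416 to 7.21 CPM elsewhere. Neuron (6 genes), lymphocyte (5 genes) and oligodendrocyte lineage markers (6 genes) reached at most 8.71, 1.21 and 207 CPM. Astrocyte markers (5 genes, mostly Slc1a3) summed to 236 to 245 CPM in adult, 52.3 to 428 CPM at PND8 and 407 to 564 CPM in repopulation, and endothelial markers (5 genes) to 79.1 to 79.4 CPM in adult against 37.0 to 75.9 CPM in the other groups. The part of these cells in the result was not tested. In such bulk samples fewer cells that express a gene and less of its RNA per cell cannot be told apart.

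Comparing Ki67-positive with Ki67-negative cells of the same age and treatment asks how the genes differ by Ki67 sort. The Ki67-negative cells held more Mki67 than adult and are not shown to be free of cycling cells. At PND8, 18 of the 42 genes were lower and 2 higher in Ki67-positive cells by the same edgeR test, where 3.15% of all tested genes were lower and 2.75% higher. The median log2 fold change of the 42 was -0.56, beside -0.03 over all tested genes, and 3 of the 42 estimates lay above 0. For 33 genes both Ki67-positive libraries lay below both Ki67-negative ones and for 2 above, beside 26.3% and 19.1% of tested genes. By role the number lower was 5 of 5 for polymerases, primase and joining, 3 of 4 for checkpoint and assembly, 4 of 8 for clamp, loader and single-strand binding, 3 of 6 for helicases, nucleases and repair (with 1 higher), 2 of 9 for homologous recombination and 1 of 10 for the Fanconi pathway (with 1 higher).

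In repopulating microglia 3 of the 42 genes were lower and 1 higher in Ki67-positive cells, beside 0.867% and 1.87% of tested genes. The median was -0.22, beside -0.00 over all tested genes, and 12 of the 42 estimates lay above 0. Both Ki67-positive libraries lay below both Ki67-negative ones for 14 genes and above for 4, where 23.9% of tested genes did each. Here and at PND8, neither these counts nor the test pair the libraries that share a header code. With the code as a term 28 genes were called at PND8 and 14 in repopulation, beside 15.2% and 9.92% of tested genes. The 2 repopulating Ki67-negative libraries differed from each other in the sum of the 42 genes (1736 and 2272 CPM), and so did the 2 Ki67-positive ones (1584 and 1987 CPM).

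**Figure D2:**
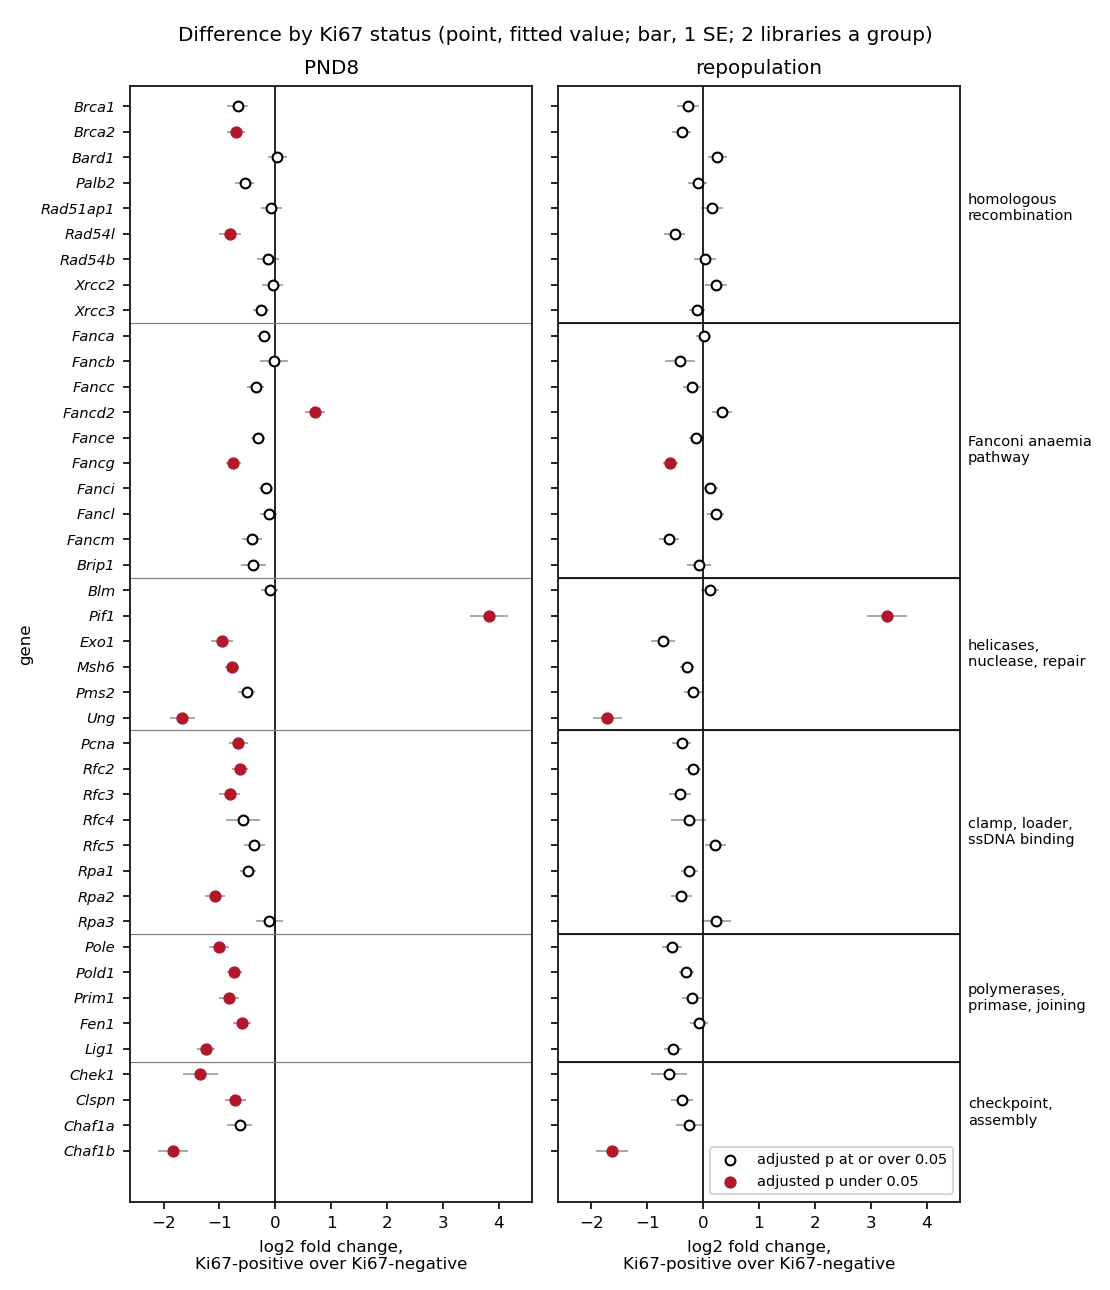
Log2 fold change of Ki67-positive over Ki67-negative cells for each of the 42 genes at PND8 (left) and in repopulation (right). Points are edgeR estimates, bars are 1 SE, and filled points passed an adjusted p of 0.05. At PND8 20 points are filled, 18 of them left of 0, and in repopulation 4 are filled, with Pif1 far to the right in both panels at 3.82 and 3.29.

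All 5 genes that synthesise and join the strands were lower at PND8. Lig1 was at 162 and 185 CPM in Ki67-negative and 74.5 and 72.8 in Ki67-positive PND8 libraries, a log2 fold change of -1.24 ± 0.16 (SE), adjusted p = 0.000399. In repopulation Lig1 was at 110.4 and 148 and 74.9 and 103 CPM, also without overlap, but did not pass (-0.54 ± 0.16 (SE), adjusted p = 0.0993). Pole, the catalytic subunit of the leading strand polymerase, was at 123 and 113 against 59.3 and 57.6 CPM at PND8 (-1.01 ± 0.18 (SE), adjusted p = 0.00368). Its repopulation values were 78.6 and 116 against 57.1 and 75.3 CPM (-0.56 ± 0.18 (SE), adjusted p = 0.138), again without overlap. Prim1, the primase that starts each fragment, was at 36.5 and 40.3 against 21.0 and 22.1 CPM at PND8 (-0.83 ± 0.18 (SE), adjusted p = 0.0127). Its groups overlapped in repopulation, at 30.9 and 40.1 and 27.4 and 34.5 CPM (-0.19 ± 0.18 (SE), adjusted p = 0.667). Fen1 went from 81.3 and 97.1 to 55.0 and 63.7 CPM at PND8 (-0.59 ± 0.16 (SE), adjusted p = 0.0457), and in repopulation its libraries overlapped at 62.2 and 81.4 and 58.3 and 78.7 CPM (-0.07 ± 0.16 (SE), adjusted p = 0.903). Pold1, the catalytic subunit of the lagging strand polymerase, was lower at PND8 (-0.73 ± 0.13 (SE), adjusted p = 0.00379) and did not pass in repopulation (-0.30 ± 0.13 (SE), adjusted p = 0.293).

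Of the clamp, loader and single-strand binding genes, Pcna, Rfc2, Rfc3 and Rpa2 were lower at PND8. Pcna was at 94.3 and 99.7 CPM in Ki67-negative and 60.1 and 62.8 in Ki67-positive libraries there (-0.66 ± 0.17 (SE), adjusted p = 0.0332). In repopulation its values were 67.2 and 99.0 and 54.1 and 73.3 CPM and overlapped (-0.38 ± 0.17 (SE), adjusted p = 0.296). Rpa2, a subunit of the protein that coats single strands, had the largest change of the group at PND8, from 47.4 and 60.3 to 22.5 and 28.6 CPM (-1.08 ± 0.18 (SE), adjusted p = 0.00266). It was at 33.8 and 44.6 and 26.5 and 33.4 CPM in repopulation, where the groups did not overlap and the test did not pass (-0.39 ± 0.18 (SE), adjusted p = 0.336). Rfc3, a clamp loader subunit, was at 33.3 and 46.2 and 20.7 and 24.7 CPM at PND8 (-0.81 ± 0.19 (SE), adjusted p = 0.0200). Its repopulation values were 27.4 and 36.0 and 22.2 and 25.3 CPM (-0.41 ± 0.19 (SE), adjusted p = 0.329). Rfc2 was also lower at PND8 (-0.63 ± 0.14 (SE), adjusted p = 0.0173). Rpa1, Rpa3, Rfc4 and Rfc5 did not pass, with PND8 log2 fold changes of -0.49, -0.11, -0.58 and -0.37.

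The checkpoint and assembly genes held the largest fall at PND8. Chaf1b was at 39.9 and 39.0 CPM in Ki67-negative and 12.2 and 9.94 in Ki67-positive PND8 libraries (-1.83 ± 0.26 (SE), adjusted p = 0.000971). It was lower in repopulation as well, with 16.2 and 28.2 against 5.32 and 9.07 CPM and no overlap (-1.63 ± 0.29 (SE), adjusted p = 0.00677). Chaf1a, its partner subunit, did not pass at PND8 (-0.64 ± 0.22 (SE), adjusted p = 0.116) or in repopulation (-0.25 ± 0.23 (SE), adjusted p = 0.666). Chek1, the checkpoint kinase, was at 32.8 and 25.4 and 11.6 and 11.3 CPM at PND8 (-1.34 ± 0.31 (SE), adjusted p = 0.0207). In repopulation Chek1 overlapped between groups, at 12 and 22.9 and 8.21 and 14.5 CPM (-0.61 ± 0.33 (SE), adjusted p = 0.407). Clspn was lower at PND8, 61.1 and 74.4 against 41.6 and 41.0 CPM (-0.72 ± 0.19 (SE), adjusted p = 0.0399). Its repopulation libraries overlapped at 51.5 and 72.5 and 39.4 and 56.0 CPM (-0.38 ± 0.19 (SE), adjusted p = 0.364).

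The helicases, nucleases and repair genes went both ways. Ung was lower in Ki67-positive cells of both settings: 35.9 and 44.1 against 12.6 and 12.7 CPM at PND8 (-1.66 ± 0.22 (SE), adjusted p = 0.000594) and 12.8 and 21.0 against 4.51 and 5.76 CPM in repopulation (-1.71 ± 0.27 (SE), adjusted p = 0.00271). Neither pair of groups overlapped. Pif1, a helicase that unwinds DNA at forks and telomeres, was higher in both, from 4.46 and 12.5 to 108 and 141 CPM at PND8 (3.82 ± 0.34 (SE), adjusted p = 2.77e-05) and from 5.31 and 10.7 to 63.7 and 86.9 CPM in repopulation (3.29 ± 0.36 (SE), adjusted p = 0.000198). Its count row is a non-coding transcript model of the gene (NR_151702). Exo1, an exonuclease that resects DNA ends, was at 28.0 and 31.8 and 16.7 and 14.2 CPM at PND8 (-0.95 ± 0.20 (SE), adjusted p = 0.0126). Its repopulation values of 20.2 and 22.9 and 10.4 and 16.0 CPM did not overlap, and the test did not pass (-0.71 ± 0.21 (SE), adjusted p = 0.103). Blm, a helicase that dissolves recombination intermediates, overlapped at PND8, with 59.8 and 51.3 and 48.7 and 54.6 CPM (-0.10 ± 0.16 (SE), adjusted p = 0.785). It overlapped in repopulation too, at 35.0 and 48.0 and 40.4 and 49.8 CPM (0.13 ± 0.16 (SE), adjusted p = 0.779). Msh6, a mismatch recognition subunit, was lower at PND8 (-0.77 ± 0.12 (SE), adjusted p = 0.00160), and Pms2 did not pass (-0.51 ± 0.16 (SE), adjusted p = 0.0715).

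**Figure D3:**
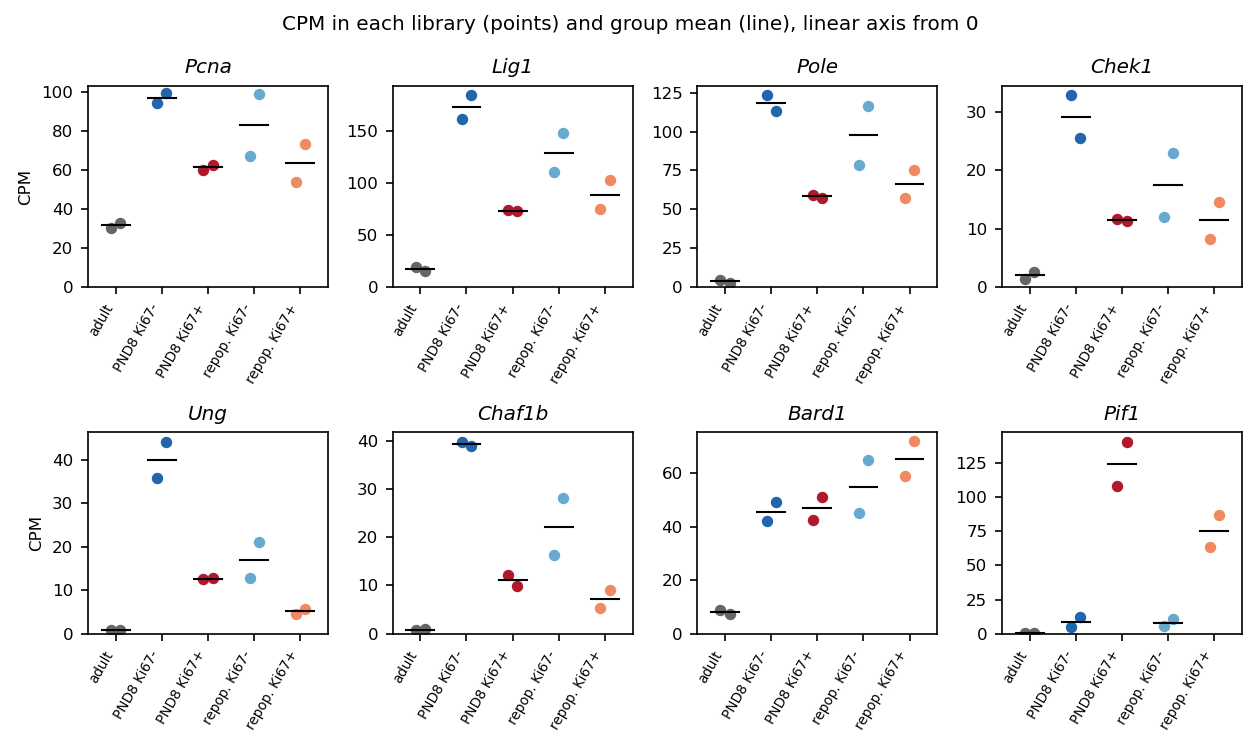
CPM of 8 genes in each library (points, 2 per group) with the group mean (line), on linear axes from 0. Pcna, Lig1, Pole, Chek1, Ung and Chaf1b are highest in PND8 Ki67-negative cells, Bard1 is lowest in adult, with means of 45.7 and 47.0 CPM in PND8 and 55.0 and 65.5 CPM in repopulating cells, and Pif1 is high in Ki67-positive cells, with means of 124 CPM at PND8 and 75.3 CPM in repopulation.

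Of the 9 homologous recombination genes, Rad54l and Brca2 were lower at PND8 and 0 passed in repopulation, where 2 had an unadjusted p under 0.05 beside 15.8% of tested genes. Rad54l was lower at PND8, 42.7 and 39.4 against 21.5 and 25.3 CPM (-0.81 ± 0.19 (SE), adjusted p = 0.0242). Its repopulation libraries, 44.1 and 53.5 against 26.7 and 42.2 CPM, did not overlap, and the test did not pass (-0.51 ± 0.19 (SE), adjusted p = 0.206). Brca2, which loads the recombinase on single strands, was lower at PND8 (-0.71 ± 0.16 (SE), adjusted p = 0.0207). Brca1 was at 64.5 and 68.6 CPM in Ki67-negative and 42.3 and 41.3 in Ki67-positive PND8 libraries, without overlap but just short of the threshold (-0.67 ± 0.19 (SE), adjusted p = 0.0542). In repopulation its libraries overlapped (-0.27 ± 0.19 (SE), adjusted p = 0.548). Bard1 was at 42.1 and 49.3 and 42.7 and 51.3 CPM at PND8 and at 45.1 and 64.9 and 58.9 and 72.1 CPM in repopulation, overlapping in both (0.04 ± 0.17 (SE), adjusted p = 0.940 and 0.26 ± 0.17 (SE), adjusted p = 0.513). Palb2, Rad51ap1, Rad54b, Xrcc2 and Xrcc3 passed in neither setting, with log2 fold changes from -0.55 (Palb2) to -0.04 (Xrcc2) at PND8.

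In the Fanconi pathway 1 gene was higher and 1 lower at PND8. Fancd2, the protein that the core complex marks with ubiquitin, was at 28.2 and 36.8 CPM in Ki67-negative and 48.2 and 58.6 in Ki67-positive libraries (0.71 ± 0.18 (SE), adjusted p = 0.0343). In repopulation it was at 47.9 and 62.0 and 64.5 and 74.1 CPM, where the libraries did not overlap and the test did not pass (0.34 ± 0.17 (SE), adjusted p = 0.377). Fanci, its partner, was at 54.8 and 58.6 and 50.0 and 50.7 CPM at PND8 (-0.17 ± 0.13 (SE), adjusted p = 0.506). Fanci's repopulation values were 50.0 and 59.0 and 53.1 and 66.4 CPM and overlapped (0.13 ± 0.13 (SE), adjusted p = 0.683). Fancg, a core complex subunit, was lower in both settings: 53.8 and 52.8 against 29.7 and 33.6 CPM (-0.75 ± 0.13 (SE), adjusted p = 0.00341) and 47.9 and 54.6 against 34.8 and 33.4 CPM (-0.58 ± 0.13 (SE), adjusted p = 0.0316). The other 7, which are Fanca, Fancb, Fancc, Fance, Fancl, Fancm and Brip1, passed in neither.

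The PND8 count was lower without either Ki67-positive library or without Ki67-negative replicate 2, in fits that leave 1 library in a group. It was 11 with limma on log2 TPM plus 0.1. The share of all tested genes called in these fits is not given here, so a fall particular to the 42 genes is not shown. Chaf1b, Ung, Lig1, Rpa2, Msh6 and Pif1 were called under all 19 alternatives at PND8. In repopulation Ung and Pif1 were called under all 19, Chaf1b under 16 and Fancg under 12. The count there fell without Ki67-negative replicate 2 or without Ki67-positive replicate 1, for which no share is given either. Within the header codes, each of which holds 1 Ki67-positive and 1 Ki67-negative library of a setting, the median of the 42 log2 differences was -0.55 and -0.52 for the PND8 codes and -0.20 and -0.21 for the repopulation codes. With the code as a term in the fit 28 genes were called at PND8 and 14 in repopulation (1 of them higher), where that fit called 15.2% and 9.92% of tested genes. In repopulation 29 of the 42 differences lay below 0 within each code, and 27 genes were below 0 in both codes and 11 above. Such signs were not counted over all tested genes, so the counts have no background to be read against. The 27 include genes whose groups overlap when the codes are set aside: Pcna (-0.31 and -0.43), Clspn (-0.38 and -0.37), Chek1 (-0.52 and -0.64) and Prim1 (-0.17 and -0.21).

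Markers of other cells also moved with Ki67 status, and their part in these differences was not tested. Endothelial markers (5 genes, of which 3 were tested) summed to 74.1 to 75.9 CPM in PND8 Ki67-negative and 40.0 to 40.2 CPM in PND8 Ki67-positive libraries, and to 56.1 to 63.3 and 37.0 to 40.2 CPM in repopulation. The 1 tested marker called lower in each setting was Pecam1, at 65.6 and 69.8 against 33.5 and 33.3 CPM at PND8, and most of the PND8 sum is its level. Kdr also lay lower without overlap, at 6.93 and 4.95 against 4.30 and 4.51 CPM at PND8. In repopulation Kdr was at 26.3 and 27.9 against 17.2 and 18.9 CPM. Flt1 was at 1.11 and 0.83 against 2.20 and 2.20 CPM at PND8 and at 3.23 and 2.74 against 2.08 and 1.30 CPM in repopulation. Cldn5 or Slco1a4 was at 0 in each of these 8 libraries. Border macrophage markers (5 of 5 tested) summed to 593.7 to 778 and 840.0 to 852 CPM at PND8, nearly all of it Mrc1 (732 and 519.7 against 834 and 814 CPM). Each of the other 4 had both PND8 Ki67-positive libraries below both Ki67-negative ones, and Lyve1, at 12.7 and 27.1 against 3.74 and 5.78 CPM, was the 1 called lower. In repopulation the list summed to 26.1 to 31.7 and 35.8 to 42.8 CPM with 0 called, and Lyve1 was at 0 in all 4 libraries. Astrocyte markers (5 of 5 tested, 0 called) summed to 82.5 to 428 and 52.3 to 371 CPM at PND8 and to 499.5 to 564 and 407 to 419 CPM in repopulation.

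A second list of 101 genes from the same pathways, none of them among the 42, gave the wider picture. At PND8 17 of these (16.8%) were lower and 4 (3.96%) higher in Ki67-positive cells, beside 3.15% and 2.75% of tested genes. Their median log2 fold change was -0.08. Of 26 other fork genes 14 were lower and 1 higher, of 29 other recombination and crosslink repair genes 1 and 2, of 26 excision repair genes 1 and 1, of 11 other checkpoint genes 1 and 0, and of 9 end joining genes 0 and 0. The share lower was 53.8% for other fork genes. It was 3.45% for other recombination and crosslink repair and 3.85% for excision repair genes, close to the share of all tested genes. Among the end joining genes 1 of 9 had an unadjusted p under 0.05, beside 19.7% of tested genes. The largest falls were Dscc1, a subunit of an alternative clamp loader (-1.59 ± 0.31 (SE), adjusted p = 0.00767), Hells, a chromatin remodeller (-1.39 ± 0.24 (SE), adjusted p = 0.00370), and Rmi2, a partner of Blm (-1.35 ± 0.26 (SE), adjusted p = 0.00745). Parpbp (2.52 ± 0.23 (SE), adjusted p = 2.95e-05), which restrains recombination, Neil3 (0.91 ± 0.19 (SE), adjusted p = 0.0131), a glycosylase that also acts on crosslinks, and Polq (0.79 ± 0.16 (SE), adjusted p = 0.00947), a polymerase of alternative end joining, were higher.

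In repopulation 2 of the 101 (1.98%) were lower and 2 (1.98%) higher, beside 0.867% and 1.87% of tested genes, with a median of -0.01. The falls were Hells (-1.13 ± 0.26 (SE), adjusted p = 0.0313) and Pola2, a subunit of the priming polymerase (-0.62 ± 0.11 (SE), adjusted p = 0.00653). Parpbp (2.23 ± 0.24 (SE), adjusted p = 0.000188) and Rnaseh2c, a subunit of the nuclease that removes ribonucleotides (1.05 ± 0.24 (SE), adjusted p = 0.0316), were higher. Parpbp was at 7.05 and 11.8 CPM in Ki67-negative and 49.5 and 61.3 in Ki67-positive PND8 libraries and at 7.29 and 9.75 and 34.6 and 44.5 in repopulation.

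Whether the Ki67 difference itself differed between PND8 and repopulation was tested as an interaction. For the 42 genes 0 passed in edgeR, where 0.0% of tested genes did, and DESeq2 and limma also called 0. Without the filter on low counts, and when the fit held the header code, edgeR called 1 of 42, which was Lig1 both times (adjusted p = 0.0134 and 0.0198). At an unadjusted p under 0.05 the count was 8 of 42 in edgeR, beside 5.01% of tested genes. The estimate was above 0, that is, less negative or more positive in repopulation, for 37 of 42 genes, with a median of 0.31 beside 0.03 over all tested genes. Chek1 (0.73), Lig1 (0.70), Rpa2 (0.70) and Prim1 (0.64) had the largest estimates, each with an adjusted p of 0.960. The PND8 and repopulation counts of calls above are therefore not shown to differ for a single gene in this fit.

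Repopulating and PND8 cells of the same Ki67 status were compared directly. Among Ki67-positive cells 3 genes were higher and 2 lower in repopulation, beside 16.7% and 14.2% of tested genes, with a median log2 fold change of 0.06. Higher were Brip1, a helicase that binds Brca1 (0.76 ± 0.22 (SE), adjusted p = 0.0197), Rad54l (0.55 ± 0.20 (SE), adjusted p = 0.0488) and Prim1 (0.52 ± 0.18 (SE), adjusted p = 0.0439). Lower were Ung (-1.31 ± 0.27 (SE), adjusted p = 0.00242) and Xrcc3, a recombinase paralog (-0.45 ± 0.15 (SE), adjusted p = 0.0340). Brip1 was at 20.0 and 26.7 CPM in PND8 and 35.4 and 44.0 in repopulating Ki67-positive libraries, without overlap. The split was 1 higher and 2 lower with DESeq2 and with library sizes as the only scaling, and 0 higher and 8 lower when the fit held the header code, where 36.0% of tested genes were called. Fewer genes were called without either PND8 Ki67-positive library or without repopulating Ki67-positive replicate 2. Those fits leave 1 library in a group. The share of all tested genes called is not given here for them, for DESeq2 or for library sizes.

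Among Ki67-negative cells 1 gene was higher and 9 lower in repopulation, beside 18% and 18.6% of tested genes, with a median of -0.32. Fancd2 was higher (0.74 ± 0.18 (SE), adjusted p = 0.00604), at 28.2 and 36.8 CPM in PND8 and 47.9 and 62.0 in repopulation. The largest falls were Ung (-1.26 ± 0.22 (SE), adjusted p = 0.000663), Chaf1b (-0.85 ± 0.25 (SE), adjusted p = 0.0178), Xrcc3 (-0.60 ± 0.14 (SE), adjusted p = 0.00597) and Fanca (-0.50 ± 0.13 (SE), adjusted p = 0.00929), a core complex subunit. Ung was at 35.9 and 44.1 CPM in PND8 and 12.8 and 21.0 in repopulation, without overlap. Msh6, Fancc, Lig1, Fance and Rfc2 were also lower, with log2 fold changes from -0.47 to -0.41. The number called was 25, 24 of them lower, with the header code as a term (43.7% of tested genes). It was higher without repopulating Ki67-negative replicate 2, and lower without its replicate 1 or without PND8 Ki67-negative replicate 2. The share of all tested genes called with those libraries left out is not given here. Age and treatment differ together between the 2 settings and cannot be told apart. One header code is shared, by replicate 2 of each PND8 group and replicate 1 of each repopulating group. Within it, as log2 CPM of 1 library minus 1 other and so without a test, the median of the 42 repopulation-minus-PND8 differences was -0.53 in Ki67-negative cells (40 of 42 below 0) and -0.09 in Ki67-positive cells (29 of 42 below 0). In Ki67-negative cells Ung was at -1.79 and Fancd2 at 0.38 on that scale. The signs on that scale were not counted over all tested genes.

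H3K27ac was found at more of the promoters in PND8 than in adult microglia. H3K27ac peaks overlapped the promoters of 28 of the 42 genes in both adult libraries, where 68.7% of tested genes had one in both. PND8 Ki67-negative cells had 40 of 42 (80.5% of tested genes), PND8 Ki67-positive cells 41 (82.3%), repopulating Ki67-positive cells 37 (79.0%), cuprizone Ki67-negative cells 30 (73.4%) and cuprizone Ki67-positive cells 38 (76.8%). Library by library the counts were 28 and 33 in adult, 40 and 42 in PND8 Ki67-negative, 41 and 42 in PND8 Ki67-positive cells, 41 and 37 in repopulating Ki67-positive, 30 and 38 in cuprizone Ki67-negative, and 38 and 41 in cuprizone Ki67-positive cells. The adult and cuprizone Ki67-negative ranges thus overlap, and adult lay below both PND8 groups.

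No H3K27ac peak was found at 9 genes (21.4%) in either adult library, close to the 22.1% of tested genes without one. These were Prim1, Pold1, Pole, Clspn, Chek1, Chaf1a, Chaf1b, Fancg and Pif1, which include 3 of the 5 polymerase, primase and joining genes and all 4 checkpoint and assembly genes. Of these, 8 were marked in both PND8 Ki67-positive libraries (all but Prim1), 7 in both PND8 Ki67-negative libraries, 6 in both repopulating Ki67-positive libraries, 6 in both cuprizone Ki67-positive libraries and 3 (Chek1, Fancg and Pole) in both cuprizone Ki67-negative libraries. Of the 2705 tested genes without an adult peak, the shares marked in both libraries of those groups were 25.3%, 19.2%, 20.6%, 15.1% and 7.39% in the same order. Prim1 was marked in 2 of the 12 H3K27ac libraries, PND8 Ki67-negative replicate 2 and PND8 Ki67-positive replicate 2. In cuprizone Ki67-negative cells Prim1, Pif1, Clspn and Chaf1a had no peak in either library, and Chaf1a and Pif1 had one in both cuprizone Ki67-positive libraries.

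The lists were called and scaled separately, so the covered lengths and the authors' peak signal (normalised tag number) are given side by side and not tested. Clspn's peak in the PND8 Ki67-negative lists covered 631 and 772 bases of the 2-kb window with a signal of 20.4 and 34.0. In the PND8 Ki67-positive lists it covered 1646 and 1404 bases with a signal of 132 and 135. Pif1's peak covered 991 and 678 bases (signal 25.0 and 18.9) in the Ki67-negative lists and 1858 and 1781 bases (138 and 191) in the Ki67-positive lists. Ung's peak had 1438 and 1656 bases (84.2 and 86.0) in Ki67-negative and 854 and 501 bases (38.2 and 26.8) in Ki67-positive lists. Chaf1b's peak had 683 and 1207 bases (19.9 and 46.0) in Ki67-negative and 1504 and 1520 bases (68.1 and 87.6) in Ki67-positive lists. The RNA of Chaf1b, Clspn and Ung was lower in PND8 Ki67-positive cells, and that of Pif1 was higher. Over the 42 genes the median covered length was 1272 and 1444 bases in the Ki67-negative and 1576 and 1699 in the Ki67-positive PND8 lists, beside 1300.0 and 1404 and 1390.0 and 1564 over tested genes. Pcna was marked in all 12 libraries, with 1780 to 1859 bases covered in adult.

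**Figure D4:**
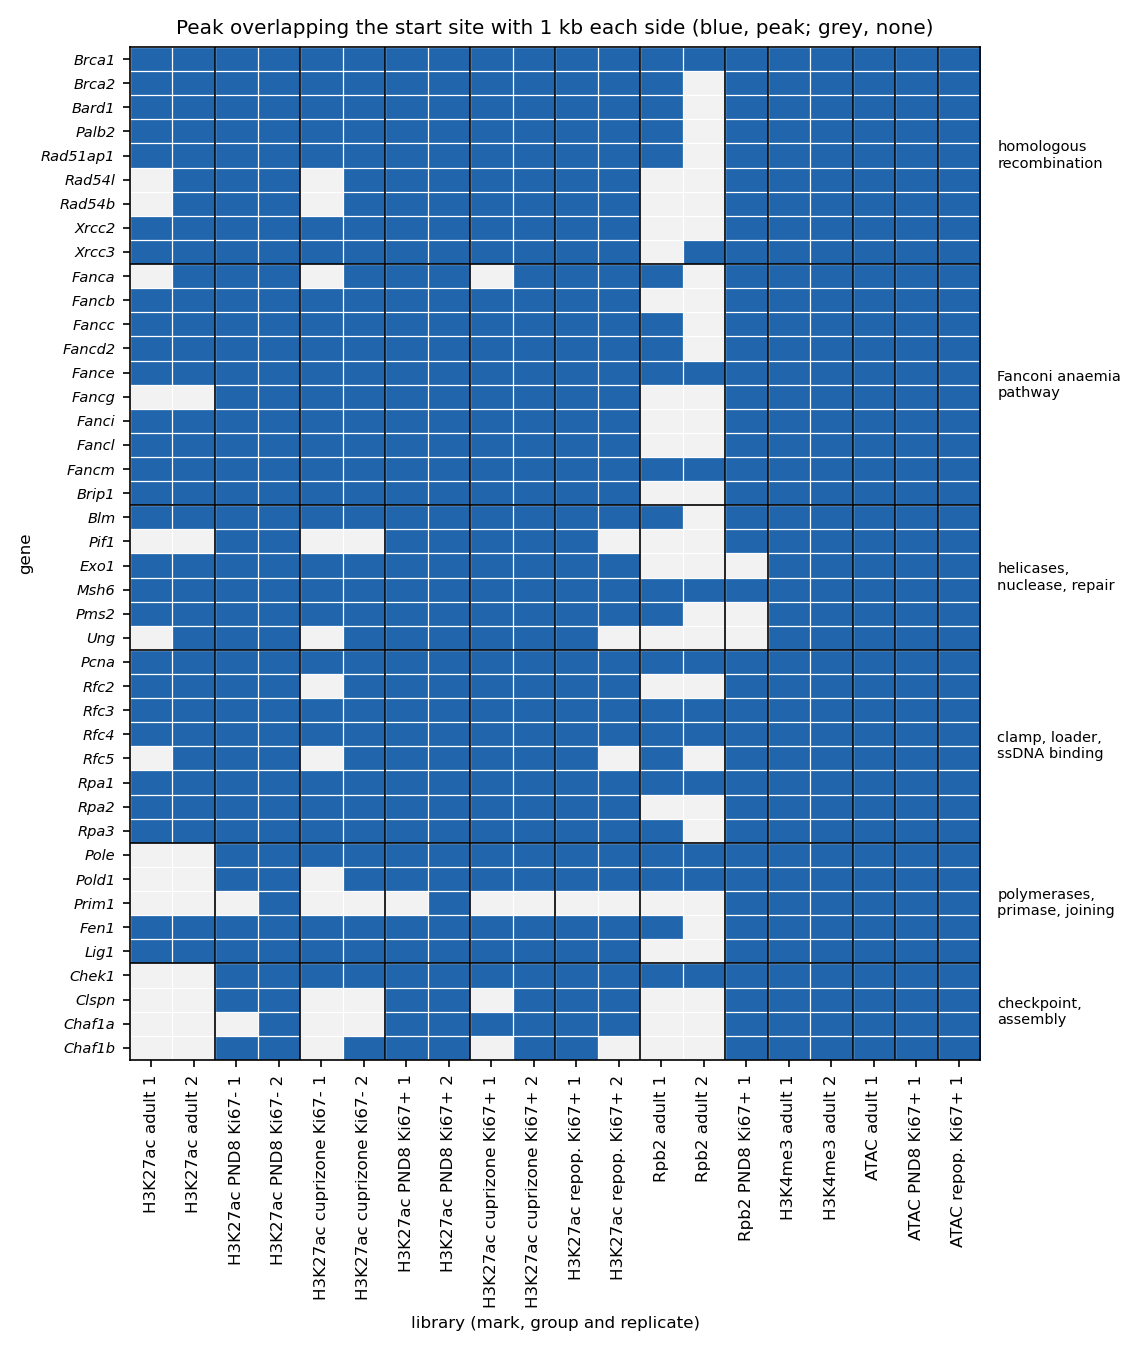
Peaks at the start site with 1 kb on each side for the 42 genes (rows, by role) in the 20 peak lists (columns, by mark, group and replicate). The H3K4me3 and ATAC-seq columns are filled for 42 of 42 genes, the 9 genes without adult H3K27ac lie mostly in the lowest rows, and Rpb2 goes from 23 and 12 filled cells in adult to 39 in PND8 Ki67-positive cells.

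Peak lists differed in length and quality, and their part in these counts was not tested. The adult H3K27ac lists held 19572 and 24903 peaks with 32.6% and 58.3% of tags inside them, the PND8 lists 26962 to 30321 peaks with 45.5% to 55.0% of tags, and the cuprizone lists 24082 to 30539. Among lists that share one header code, with 1 list per group, the counts were 33 (adult), 42 (PND8 Ki67-negative), 42 (PND8 Ki67-positive) and 41 (repopulating), beside 77.1%, 82.8%, 84.8% and 84.0% of tested genes. Among those with a second code they were 40 and 41 (PND8 Ki67-negative and Ki67-positive) and 30 and 38 (cuprizone Ki67-negative and Ki67-positive), beside 81.2%, 82.6%, 73.6% and 77.0%. Another code gave 38 and 41 for cuprizone Ki67-negative and Ki67-positive cells and 37 for repopulating Ki67-positive cells, beside 82.8%, 84.5% and 79.8%. Adult replicate 1 is the only H3K27ac list with its code.

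RNA polymerase II at the promoters was counted with Rpb2. The adult libraries marked 23 and 12 of the 42 genes, 11 in both (47.5% of tested genes in both), and the PND8 Ki67-positive library marked 39 (80.4%). Of the 18 genes with no adult Rpb2 peak (42.9%, beside 35.1% of tested genes), 16 had one in the PND8 list, as did 48.2% of the 4292 tested genes without an adult peak. The 16 were Brip1, Chaf1a, Chaf1b, Clspn, Fancb, Fancg, Fanci, Fancl, Lig1, Pif1, Prim1, Rad54b, Rad54l, Rfc2, Rpa2 and Xrcc2. Exo1, Ung and Pms2 had none in the PND8 list. Peaks in the gene body beyond the promoter window occurred for 3 and 1 of the 42 in adult and for 14 in PND8 Ki67-positive cells, beside 20.5%, 14.2% and 38.8% of tested genes. The lists held 14550, 10544 and 31602 peaks. PND8 had 1 library, so this difference has no replicate check, and the input used to call its list was an H3K27ac input. Adult replicate 2 and the PND8 library share a header code, and the values there were 12 and 39.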

How the data were processed

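RNA was sequenced in 10 libraries and chromatin peaks were listed for 20. Per the file headers, the authors deposited counts made by HOMER over exons of 1 mm10 transcript per gene, unadjusted and with at most 3 tags per position, and a TPM table. Per the file headers, peaks were called by HOMER in each library separately, with the deposited signal as normalised tag numbers and the score as the authors' peak score. The submitters' processing notes name STAR 2.7.0f, Bowtie2 2.3.4.1, HOMER 4.11, DESeq2, mm10 and GRCm38, with no role or order.

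Counts of all 10 libraries were fitted together with edgeR 4.0.16 (R 4.3.3; TMM scaling, filterByExpr by group, quasi-likelihood test), with Benjamini-Hochberg adjustment over 12230 genes and a threshold of 0.05. The SE is the absolute log2 fold change divided by the square root of the F statistic. CPM is a count scaled to the library total. On simulated counts for the PND8 Ki67 comparison, 90 of 100 genes changed by log2 1 and 100 of 100 changed by log2 2 were called with the right sign, and 6 unchanged genes were called (12230 genes). A promoter was marked where a peak overlapped the start site with 1 kb on each side by at least 1 base. Alternatives used DESeq2 1.42.0, limma 3.58.1 on log2 TPM (pseudocounts 1 and 0.1), other scalings, no filter, other fits and leaving out each library. Peak calls were also limited to the peaks at or above the median score or to 200 covered bases.

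The 42 genes and all lists were chosen with earlier results of these data known. A panel of 17 genes is given with library values in the Ki67 comparisons, together with up to 4 called genes with the largest change in each direction of every RNA comparison and at most 3 per direction of the other pathway genes. Genes whose promoter was marked in every library of one group and in none of another are named. Replicates are independent biological samples per the labels.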

Additional observations from a re-analysis of the deposited data

How the results depend on the processing

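Of 1180 gene values under the alternatives, 1050 kept direction and call, 97 were no longer called, 25 became called and 8 reversed. The 8 reversals came from leaving out 1 library and none was called. Over the libraries left out, the log2 fold change ran from -0.18 to 0.011 for Blm at PND8 (0.0084 for the other reversal), and in repopulation from -0.094 to 0.36 for Blm (also -0.03), from -0.29 to 0.13 for Fen1 (also 0.12), from -0.53 to 0.023 for Brca1 and from -0.032 to 0.27 for Fanci. Counts of called genes that moved by over 1.5 times are given here against 20 (PND8 Ki67), 4 (repopulation Ki67), 5 (repopulation against PND8, Ki67-positive), 10 (the same, Ki67-negative) and 0 (interaction), and the cause was not tested. Without the filter they were 9, 11, 19 and 1 for the last 4 comparisons. With the header code they were 14, 8, 25 and 1, beside 9.92%, 36.0%, 43.7% and 0.229% of tested genes. The main fit called 2.74%, 30.9%, 36.6% and 0.0% of tested genes in these comparisons. Shares of tested genes under the other settings named here are not given, so those counts have no background. Fitting only the groups compared gave 2 for repopulation Ki67 and 8 for repopulation against PND8, Ki67-positive. For the latter DESeq2 gave 3, library sizes 3 and log2 TPM 2 with either pseudocount. Library sizes gave 19 for Ki67-negative cells, where the median of all genes was -0.13 beside -0.04. Log2 TPM with pseudocount 0.1 gave 11 for PND8 Ki67. The replicate block gave 25, 8, 10, 20 and 0 in the same order.

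Same-numbered PND8 libraries deviated together (correlation 0.344), as did repopulating ones (0.312), and adult correlated with the other groups at -0.00 to 0.02. The adult values do not bear on pairs within PND8 or within repopulation. The main fit holds no term for such pairs. With the header code as a term, 28 genes were called for PND8 Ki67 and 14 for repopulation Ki67, beside 15.2% and 9.92% of tested genes. Within PND8 and within repopulation number and header code coincide. Shares of tested genes called with a library left out are not given here, so the following counts have no background. Leaving out each library in turn gave 7 to 22 (PND8 Ki67), 2 to 4 (repopulation Ki67), 1 to 7 and 5 to 16 (repopulation against PND8, Ki67-positive and Ki67-negative), and 0 to 0 for the interaction. Against adult it gave 35 to 37 and 39 to 40 (PND8 Ki67-positive and Ki67-negative) and 32 to 36 and 34 to 38 (repopulation).

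For promoters, keeping peaks at or above each list's median score left 8 (H3K27ac adult), 14 (PND8 Ki67-negative), 16 (PND8 Ki67-positive), 7 (cuprizone Ki67-negative), 8 (cuprizone Ki67-positive), 13 (repopulation), 3 (Rpb2 adult) and 26 (H3K4me3) of 42. This setting shortens every list, and the share of tested genes it left marked is not given here. The fall is therefore not shown to be particular to these promoters. Requiring 200 covered bases left 5 for Rpb2 at PND8 and 12, 10 and 16 for ATAC-seq in adult, PND8 and repopulation. The median peak width was 190 bases in that Rpb2 list and 112, 118 and 114 in those ATAC-seq lists. Most single peaks there cannot cover 200 bases, so this setting does not test those promoter calls. The adult Rpb2 lists had median widths of 256 and 226 bases. Single libraries gave 28 to 33 (H3K27ac adult), 40 to 42 and 41 to 42 (PND8 Ki67-negative and Ki67-positive), 30 to 38 and 38 to 41 (cuprizone Ki67-negative and Ki67-positive), 37 to 41 (repopulation) and 12 to 23 (Rpb2 adult). Groups of 2 libraries and low adult counts, such as 1 to 6 for Pif1 and 4 to 5 for Rad54b, limit the precision.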
